A study of Mus musculus with 12 samples.

Results

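The genes described here drive the cell division cycle and the copying of DNA. The set lists 41 mouse genes, chosen by function: cyclins and Cdk1, the transcription factors E2f1 and Foxm1, the factors that license and open replication origins, enzymes that make DNA and its building blocks, the kinases, checkpoint proteins and motors of mitosis, and the proliferation marker Mki67. Of these, 40 have a transcript cluster, the group of array probes assigned to 1 transcribed region, that carries their symbol alone, out of 35556 clusters on the array, 21789 of which carry 1 symbol. Ccnb1, the main cyclin of mitotic entry, was not analysed here. Pcna and Top2a have a further cluster each, and the one with the higher mean over all arrays stands for the gene.

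A cell that divides first builds D cyclins, which release E2F transcription factors from the Rb proteins. E2F factors switch on the genes for licensing of origins, for the MCM helicase and for nucleotide supply, and later Foxm1 and the MuvB complex switch on the genes of mitosis. In the adult septum nearly all neurons have left the cycle, so these transcripts are expected mainly in the few glial precursors, microglia, endothelial cells and progenitors near the lateral ventricle that still divide.

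Septum RNA of 6 lactating females on postpartum days 6 to 8 and of 6 virgin females was hybridised to Affymetrix Mouse Gene 1.0 ST arrays, with 1 array per mouse and every array from a separate animal. All mice were about 70 days old and came from 1 line bred for high maternal defense out of outbred hsd:ICR stock, which limits the comparison to that line. The lactating females had been housed with a breeder male and the virgin females with other females, after which both were housed singly and fed breeder chow. The virgin females were in estrus, diestrus I or diestrus II and none was in proestrus, but which mouse was in which stage is not given in the sources used here. Lactation therefore comes together with mating, pregnancy, birth and contact with pups, and these cannot be told apart. The labels name the lateral septum, whereas the methods describe the whole septum.

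Values are PLIER intensities, a model-based summary of probe brightness on a linear scale, and the array median was between 320 and 339. Differences are lactating minus virgin on the log2 scale after 16 was added to each intensity, and p-values are from the moderated test of limma over all clusters, two-sided. At the unadjusted 0.05 threshold, 4.69% of clusters on the array were lower in lactating mice and 3.26% were higher, so that 41.0% of these calls were higher. This split depended on the scaling: higher calls made up 67.1% when the median of each array was subtracted, 54.3% after cyclic loess, 52.2% after quantile normalization and 55.2% on linear intensities. No cluster passed a Benjamini-Hochberg adjusted p under 0.05 in limma, the smallest being 0.0715, while 1668 lower and 1160 higher clusters passed the unadjusted threshold. Neuronal markers overlapped between the groups. The sum over 6 general neuronal genes was 47941 to 50213 in lactating and 47357 to 50693 in virgin mice, and that over 6 genes of septal neurons, among them the transcription factors Zic1 and Zic2, was 17567 to 19727 and 17001 to 20009.

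As a set, the cell cycle genes differed little between lactating and virgin septum. Mcm2, a subunit of the replicative helicase, Sgo1, the guardian of cohesin at centromeres, and Aurka, a kinase of the spindle poles, were lower in lactating mice at an unadjusted p under 0.05, with mean intensities that differed from the virgin mean by −9.42%, −11.6% and −6.59%. None was higher. These 3 genes are 7.5% of the 40, beside 4.69% of all clusters that were lower at the same threshold, and the 0 higher genes stand beside 3.26%. No member passed an adjusted p under 0.05 in limma, where the smallest was 0.619, and none passed an unadjusted p under 0.0025, which 0.337% of all clusters did. On linear intensities Mcm2 and Sgo1 passed that threshold, with unadjusted limma p-values of 0.0016 and 0.0021. The study's own list of changed genes, made from these same arrays at that threshold, names Mcm2 and Sgo1 (there under its older symbol Sgol1), so their differences here are not independent evidence.

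The differences of the 40 genes ran from −0.18 for Ccna2 to 0.12 for Cdc6. Of these, 31 were below 0 and 9 above, with a median of −0.065, against a median of −0.0093 over all clusters, 19341 of which were below 0. The count below 0 was 28 with array medians subtracted and 29 after cyclic loess or quantile normalization, and the median was then −0.041, −0.025 and −0.034. Over all clusters the median moved as well, to 0.014, 0.00016 and −0.0016 under the same 3 scalings. Subtracting array medians shifts all clusters alike, so it leaves the gap between members and all clusters as it was. In tissue that holds many cell types, fewer dividing cells and less RNA per dividing cell cannot be told apart. Whether the values reflect either of these, or background and scaling, was not tested.

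**Figure D1:**
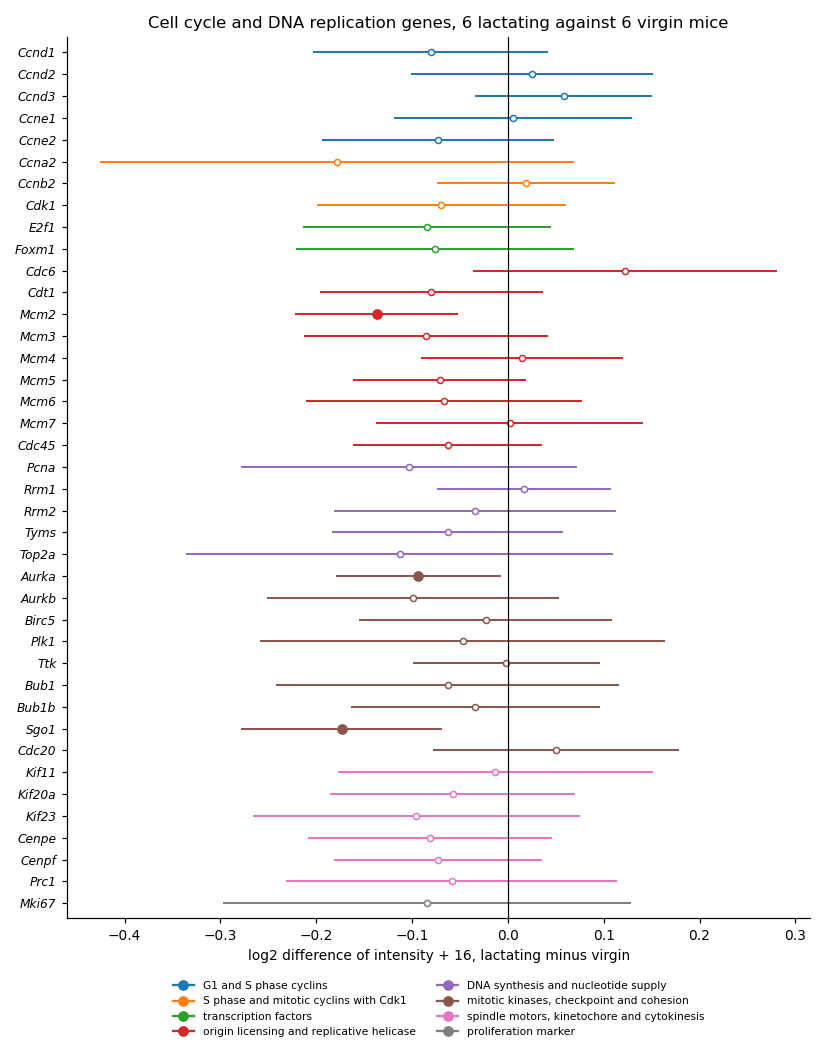
Log2 difference of intensity plus 16 (x axis, lactating minus virgin, 6 mice per group) for each of the 40 genes (y axis), coloured by role, with bars for the 95% confidence interval of limma and filled points for an unadjusted p under 0.05. Only Mcm2, Sgo1 and Aurka have an interval that leaves out 0, and 31 of 40 points lie left of 0.

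Among the genes that license origins and open the helix, 1 of 9 was lower in lactating mice and 0 were higher, with 6 differences below 0 and 3 above and a median of −0.067. Mcm2 to Mcm7 encode the 6 subunits of the MCM ring, which Cdc6 and Cdt1 load onto origins and which Cdc45 helps to turn into an active helicase. Mcm2 had intensities of 360 to 397 in lactating mice, with a median of 380, and of 400 to 444 in virgin mice, with a median of 420. Every lactating mouse was below every virgin mouse, a separation in this direction that 0.186% of all clusters showed. The means were 382 ± 13.9 and 422 ± 18.6 (SD, n = 6 each), a difference of −0.14 with an SE of 0.039 and a 95% interval from −0.22 to −0.053. The limma p was 0.0038 before adjustment and 0.619 after it, and the exact permutation test gave 0.00216, the smallest p that 6 mice against 6 allow.

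The other MCM subunits did not show this separation. Mcm5 averaged 417 ± 18.6 in lactating and 438 ± 19.8 in virgin mice (SD, n = 6 each). Its difference was −0.071 and its exact permutation p was 0.0801, with 3 lactating mice below every virgin mouse. Mcm3 was 190 ± 18.1 against 202 ± 11.3, a difference of −0.085 with an exact permutation p of 0.180, and Mcm6 was 320 ± 31.2 against 335 ± 23.5, a difference of −0.067 with an exact permutation p of 0.355. Mcm4 and Mcm7 lay at 0.015 and 0.0018, with exact permutation p-values of 0.738 and 0.976, and the sign of Mcm7 turned after cyclic loess and quantile normalization. The subunits of the ring thus had differences from −0.14 to 0.015 in the same mice, and that between Mcm2 and the other subunits was not tested.

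Cdc6, the loader of the ring, had the highest difference of the set. It ranged from 108 to 151 in lactating mice, with a median of 122, and from 99.0 to 125 in virgin mice, with a median of 114. The groups overlapped, and the difference of 0.12 had an exact permutation p of 0.143. After cyclic loess or quantile normalization, and without lactating mouse 3, Cdc6 was the 1 member that was higher at an unadjusted p under 0.05. Cdt1 and Cdc45 had differences of −0.080 and −0.063, with exact permutation p-values of 0.165 and 0.145.

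The genes of mitotic kinases, the spindle checkpoint and chromosome cohesion held the other 2 lower genes, out of 9, with 0 higher. Sgo1 keeps the cohesin that joins sister centromeres from being removed before anaphase. It had intensities of 362 to 445 in lactating mice, with a median of 407, and of 430 to 482 in virgin mice, with a median of 454. In 5 of 6 lactating mice it was below every virgin mouse, and lactating mouse 2, at 445, lay among the virgin mice. The means were 403 ± 28.4 and 455 ± 17.3 (SD, n = 6 each), a difference of −0.17 with an SE of 0.048 and a 95% interval from −0.28 to −0.070. The limma p was 0.0032 before adjustment and 0.619 after it, and the exact permutation p was 0.00433.

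Aurka encodes Aurora A, which matures centrosomes and builds the spindle. Its intensities were 240 to 275 in lactating mice, with a median of 264, and 274 to 302 in virgin mice, with a median of 277. In 5 of 6 lactating mice the value was below every virgin mouse, but the groups overlapped at their edge, lactating mouse 6 being at 275 and virgin mouse 3 at 274. The means were 262 ± 12.2 and 281 ± 10.3 (SD, n = 6 each), the difference was −0.093 with an SE of 0.039, and p was 0.0337 before and 0.623 after adjustment in limma and 0.00433 in the exact permutation test. Virgin mouse 4, at 302, and lactating mouse 4, at 240, were the extremes. Without them in turn the unadjusted limma p was 0.0771 and 0.0828, and with array medians subtracted, cyclic loess and quantile normalization it was 0.119, 0.187 and 0.156, so that the call for Aurka was lost under each of these.

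The remaining genes of this group were Aurkb and Birc5, partners in the chromosomal passenger complex, Plk1, a kinase of mitotic entry and exit, Ttk, Bub1 and Bub1b of the spindle checkpoint, and Cdc20, the activator of the anaphase-promoting complex that the checkpoint holds back. Their differences ran from −0.099 for Aurkb, with an exact permutation p of 0.219, to 0.051 for Cdc20, with one of 0.420, and their groups overlapped. Of the 9 genes, 8 were below 0, a count that fell to 6 with array medians subtracted and to 5 after cyclic loess or quantile normalization.

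**Figure D2:**
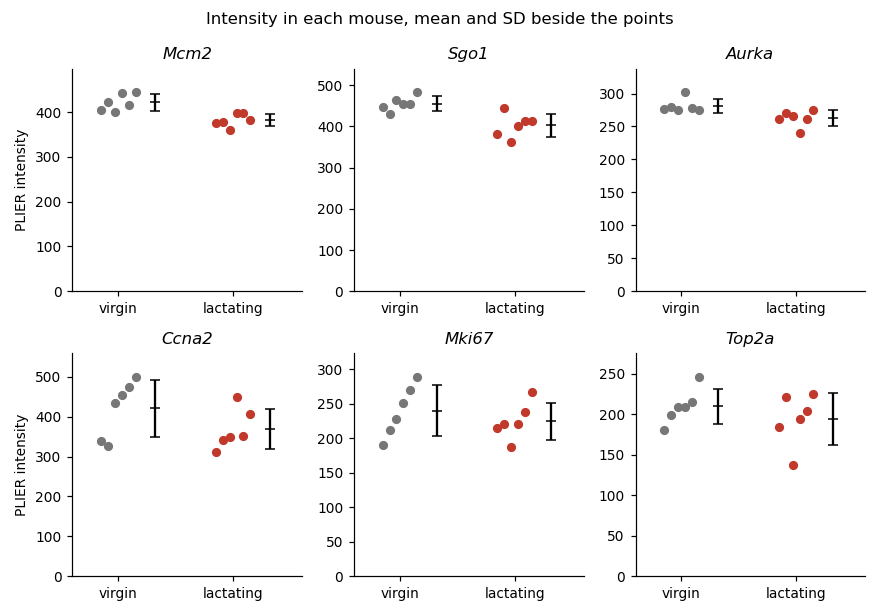
PLIER intensity (y axis, linear, from 0) of 6 genes in each virgin (grey) and lactating (red) mouse, with the mean and SD of the 6 mice beside the points. Mcm2 shows no overlap between groups (at most 397 against at least 400), 1 lactating mouse reaches the virgin range for Sgo1, the groups touch for Aurka, and for Ccna2, Mki67 and Top2a they overlap broadly.

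The promoters of these 3 genes and of Cdk1 are printed because the DNA elements that time the transcription of cell cycle genes can be read in them. RefSeq windows of 300 bases in GRCm38.p6, 250 before and 50 after the start, were found for 32 of the 40 genes. The elements searched, on both strands, were E2F sites (TTTCCCGC, TTTCGCGC, TTTGCCGC or TTTGGCGC), the cell cycle homology region CHR (TTTGAA or TTCGAA), which the MuvB complex is known to bind, and CCAAT, the site of the factor NF-Y. Each window is given 5′ to 3′ on the strand of its gene, in lower case with matches in capitals. No matches overlap, and ATTGG is CCAAT on the other strand. Mcm2 (chr6:88898731-88899030, minus strand) holds 1 CHR and 1 CCAAT match, as does Sgo1 (chr17:53689266-53689565, minus strand). Aurka (chr2:172370521-172370820, minus strand) holds 1 CHR and 2 CCAAT matches. Cdk1 (chr10:69352863-69353162, minus strand), shown as a gene of the set whose window holds every element, has 1 E2F, 2 CHR and 3 CCAAT matches.
Mcm2: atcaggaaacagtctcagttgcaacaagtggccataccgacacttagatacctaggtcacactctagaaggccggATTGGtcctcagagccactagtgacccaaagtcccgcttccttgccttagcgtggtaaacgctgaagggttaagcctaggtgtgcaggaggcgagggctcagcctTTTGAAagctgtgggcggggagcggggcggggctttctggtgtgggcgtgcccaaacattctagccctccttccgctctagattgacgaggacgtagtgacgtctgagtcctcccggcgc
Sgo1: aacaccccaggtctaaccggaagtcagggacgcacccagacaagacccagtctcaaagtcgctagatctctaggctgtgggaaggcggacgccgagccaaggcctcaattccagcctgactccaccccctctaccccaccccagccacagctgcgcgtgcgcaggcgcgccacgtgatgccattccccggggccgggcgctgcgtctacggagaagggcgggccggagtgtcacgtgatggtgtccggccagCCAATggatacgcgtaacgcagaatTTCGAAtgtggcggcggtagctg
Aurka: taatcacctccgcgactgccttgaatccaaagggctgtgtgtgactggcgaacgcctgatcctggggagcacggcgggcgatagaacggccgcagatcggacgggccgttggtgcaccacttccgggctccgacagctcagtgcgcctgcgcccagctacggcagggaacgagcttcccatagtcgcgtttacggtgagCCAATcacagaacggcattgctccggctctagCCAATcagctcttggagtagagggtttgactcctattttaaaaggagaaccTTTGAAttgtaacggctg
Cdk1: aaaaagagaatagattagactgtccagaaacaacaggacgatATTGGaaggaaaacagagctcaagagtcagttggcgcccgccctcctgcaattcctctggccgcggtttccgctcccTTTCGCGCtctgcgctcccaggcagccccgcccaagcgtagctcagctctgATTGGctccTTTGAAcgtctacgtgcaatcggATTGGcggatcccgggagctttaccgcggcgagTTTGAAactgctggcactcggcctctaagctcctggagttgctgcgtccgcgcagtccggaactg

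E2F matches stood in the promoters of 7 of the 32 matched genes, or 21.9%, against 2.26% of 32851 promoter windows of all genes. Members were counted by gene, with a match in any window of the gene, and the background by single window, so these shares are in unlike units. The genes with an E2F match were Cdc6, Cdk1, Cdt1, Mcm3, Mcm5, Mcm6 and Mcm7, so that 6 of the 8 matched licensing and helicase genes held one. CHR matches stood in 18, or 56.2%, against 19.2% of all windows, among them 7 of the 8 matched genes of the mitotic kinases and checkpoint. CCAAT stood in 26, or 81.2%, against 37.4%. The median difference between lactating and virgin mice was −0.069 with an E2F match and −0.063 without one, −0.063 with a CHR match and −0.065 without one, and −0.065 with a CCAAT match and −0.043 in the 6 genes without one, given here with no test. A match is a string of letters in a window and not a measured binding site.

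No cyclin passed an unadjusted p under 0.05 in either direction. The D cyclins, which answer to growth signals, differed in sign. Ccnd1 ranged from 1219 to 1323 in lactating mice and from 1194 to 1507 in virgin mice, with medians of 1300 and 1365, and Ccnd2 from 2035 to 2258 and from 1881 to 2363, with medians of 2133 and 2105. The lactating values of both lay inside the virgin range. Their differences were −0.081 and 0.025, with exact permutation p-values of 0.188 and 0.669. Ccnd3 was at 0.058 and the E cyclins of S phase entry, Ccne1 and Ccne2, at 0.0054 and −0.073.

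Ccna2, the cyclin of S phase and early mitosis, had the lowest difference of the set and one of the widest spreads. It ranged from 312 to 449 in lactating mice, with a median of 350, and from 327 to 499 in virgin mice, with a median of 445. Virgin mice 1, 2 and 3, at 339, 327 and 435, lay inside the lactating range, and 5 of 6 lactating mice, all but mouse 1 at 312, inside the virgin range. The difference of −0.18 had a 95% interval from −0.42 to 0.068 and an exact permutation p of 0.173. Ccnb2, a cyclin of mitosis, was at 0.019, and Cdk1, the kinase that Ccna2 and Ccnb2 activate, was 163 ± 10.5 against 173 ± 16.3 (SD, n = 6 each), a difference of −0.069. E2f1, which opens the S phase programme, was 301 ± 27.8 against 320 ± 19.0, a difference of −0.084 with an exact permutation p of 0.186. In 4 lactating mice it lay below every virgin mouse, and the highest value, 348, was also of a lactating mouse. Foxm1, which drives the mitotic genes, was at −0.076.

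Genes of DNA synthesis and nucleotide supply showed 0 lower and 0 higher of 5. Pcna, the sliding clamp of the polymerases, ranged from 1759 to 2206 in lactating mice and from 1844 to 2667 in virgin mice, with medians of 1962 and 2065. Virgin mouse 2, at 2667, stood above all others, whose highest was 2206. The difference was −0.10 with an exact permutation p of 0.286, and the other cluster of Pcna was at −0.11. Without virgin mouse 2 the difference of Pcna was −0.037. Rrm1 and Rrm2, the subunits of ribonucleotide reductase, were at 0.017 and −0.035, and Tyms, which makes thymidylate, at −0.063. Top2a, the topoisomerase that untangles chromosomes, ranged from 137 to 224 in lactating mice and from 181 to 245 in virgin mice, with medians of 199 and 209. Its difference was −0.11, with a 95% interval from −0.33 to 0.11. The dimmer cluster of Top2a had the opposite sign, at 0.22, with an unadjusted limma p of 0.220. Its mean intensity of 39.0 lay under 86.3, the median of the dim receptor clusters described below, so its sign says little about Top2a.

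Motors, kinetochore and cytokinesis genes were all below 0 but none passed the unadjusted threshold. Kif11, which pushes the spindle poles apart, Kif20a, Kif23 and Prc1 of the midzone and cleavage furrow, and Cenpe and Cenpf of the kinetochore had differences of −0.095 for Kif23 to −0.013 for Kif11. With array medians subtracted, cyclic loess or quantile normalization, 5 of the 6 were below 0 and 1 above. Mki67, whose protein coats mitotic chromosomes and marks cycling cells, ranged from 187 to 267 in lactating mice and from 191 to 288 in virgin mice, with medians of 220 and 240. Both groups covered nearly the same range. Its difference of −0.084 had a 95% interval from −0.30 to 0.13 and an exact permutation p of 0.444, so that neither a fall nor a rise of Mki67 in this range can be told from the spread between these mice.

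Single mice stood high or low across much of the set. Virgin mouse 6 was the highest of the 12 for 13 of 40 genes and lactating mouse 3 the lowest for 16, with median deviations from the gene means of 0.11 and −0.12. Over the 21 genes of mitosis, mitotic cyclins, transcription factors and Mki67, virgin mouse 6 was highest for 8 and lactating mouse 3 lowest for 10. Virgin mouse 1 was low instead, with a median deviation of −0.059, next to lactating mouse 1 at −0.060. The order was partly a matter of scaling. After cyclic loess, lactating mouse 6 was the highest for 11 genes and virgin mice 5 and 6 for 6 each, and lactating mouse 1 was the lowest for 9 and lactating mouse 3 and virgin mouse 2 for 8 each. Virgin mouse 6 still had the highest median deviation on that scale, 0.097, followed by lactating mouse 6 at 0.072. Without lactating mouse 3 or virgin mouse 6 the set still held the same 3 lower genes, Mcm2, Sgo1 and Aurka, but the median of the set moved from −0.065 to −0.041 without the former and to −0.040 without the latter. The difference of Top2a moved from −0.11 to −0.024 and −0.069, and that of Mki67 from −0.084 to −0.037 and −0.032.

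**Figure D3:**
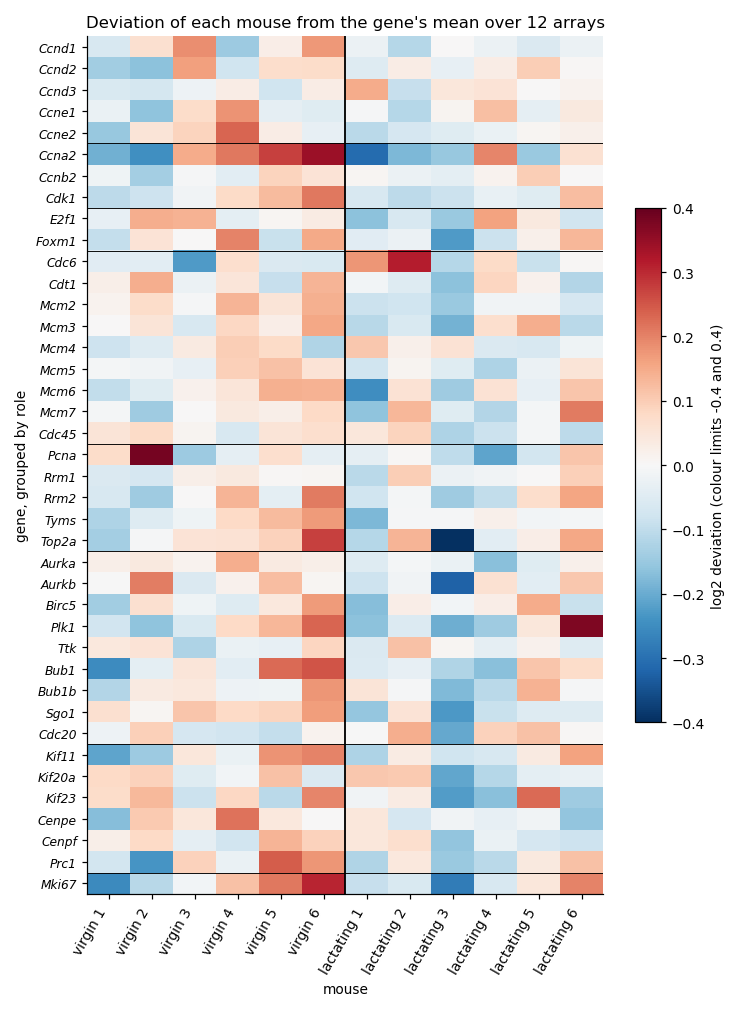
Deviation of each mouse (x axis) from the mean over 12 arrays for each gene (y axis, grouped by role), in log2 units from blue (lower) to red (higher). The column of virgin mouse 6 is mostly red, with a median of 0.11, and that of lactating mouse 3 mostly blue, with a median of −0.12.

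Calls among markers of the cell types that could hold dividing cells stand beside 4.69% of all clusters lower and 3.26% higher. Of 8 neuroblast and progenitor genes 0 were lower and 0 higher, their sum being 7732 to 8815 in lactating and 7905 to 8690 in virgin mice, and of 6 genes of oligodendrocyte precursors, among them Pdgfra and Cspg4, 0 were lower and 0 higher, with sums of 4682 to 5574 and 4566 to 4978. All 6 precursor genes had differences above 0, from 0.0040 to 0.095, also with array medians subtracted, cyclic loess and quantile normalization, and none passed the unadjusted threshold under any of these. Of 7 microglial genes, Cx3cr1 and P2ry12, both surface receptors of these cells, were lower at unadjusted limma p-values of 0.0482 and 0.0073, and 0 were higher. These are 28.6% of that list. The rest of the list ran from −0.096 for C1qb to 0.048 for Tmem119, with Aif1 also above 0, and exact permutation p-values of 0.455 to 0.874. With array medians subtracted the call for Cx3cr1 was lost. Cx3cr1 was 778 to 814 in lactating mice and 819 to 1013 in virgin mice, so that every lactating mouse was below every virgin mouse (exact permutation p = 0.00216). Of all clusters, 0.186% showed this separation. P2ry12 is also in the study's own list. The microglial sum was 4770 to 5024 in lactating mice and 4821 to 6614 in virgin mice, and the high end was virgin mouse 6 alone, the other virgin mice being at most at 5033. In that mouse C1qb, at 2208 with the other virgin mice at most at 1330, C1qa, Csf1r and Cx3cr1 were the highest of all mice. Its Tmem119 and P2ry12, at 459 and 806, lay inside the range of the other virgin mice. On the scale used here, though not after cyclic loess, virgin mouse 6 is also the mouse in which the largest number of cell cycle genes peaked. Its median deviation over the cell cycle genes was the highest of all mice on either scale, at 0.11 and 0.097. The part of microglia in these values was not tested. Of 6 ependymal genes 1, or 16.7%, was lower, Ccdc153, at p = 0.0381 in limma and 0.0476 in the exact permutation test. The ependymal sums were 2537 to 2997 and 2683 to 3124. The call for Ccdc153 was also lost with array medians subtracted. Choroid plexus and endothelial genes held none in either direction, and of 2 blood genes Alas2, of heme synthesis in red cells, was higher by 0.31, at p = 0.0180 in limma and 0.0433 in the exact permutation test. None of these markers was at 0 in any mouse, but an intensity above 0 does not show expression. Nes, Aif1, Kl, Kcnj13, Aqp1 and S100a8 had means in both groups under 246, the 95th percentile of the dim receptor clusters described below.

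Many of the cell cycle clusters were dim. The table has no detection call, so the 1210 clusters of olfactory and vomeronasal receptor genes, which brain tissue is known to express hardly at all, served as a dim reference, with a median intensity of 86.3 and a 95th percentile of 246. Intensity does not order genes by expression, since probes differ in brightness. The member means ran from 102 to 2114, and 20 of 40 lay under that percentile, among them Cdk1, Mki67 and Top2a, while Mcm2, Sgo1 and Aurka lay above it. Of the 20 under it, 0 passed an unadjusted p under 0.05. The receptor clusters themselves were lower in lactating mice: 997 of 1210 were below 0, with a median of −0.074, and 130, or 10.7%, were lower at an unadjusted p under 0.05 against 4 that were higher. The members under the percentile had a median of −0.066 and those above it −0.065. Among the 14 members above the median intensity of all clusters, 7 were below 0 and the median of the 14 was −0.031. All clusters above that intensity had a median of 0.016. Lactating mouse 3 was the lowest of the 12 for 431 of the receptor clusters, and virgin mouse 2 the highest for 422. Among the 40 members these mice were the lowest for 16 and the highest for 3. Lactating mouse 6 was the lowest for 218 receptor clusters but for 0 members. The median was −0.065 over all members and −0.074 over the receptor clusters, though 20 of the 40 members were brighter than the 95th percentile of those clusters. The part of background in the shift of the members was not tested.

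**Figure D4:**
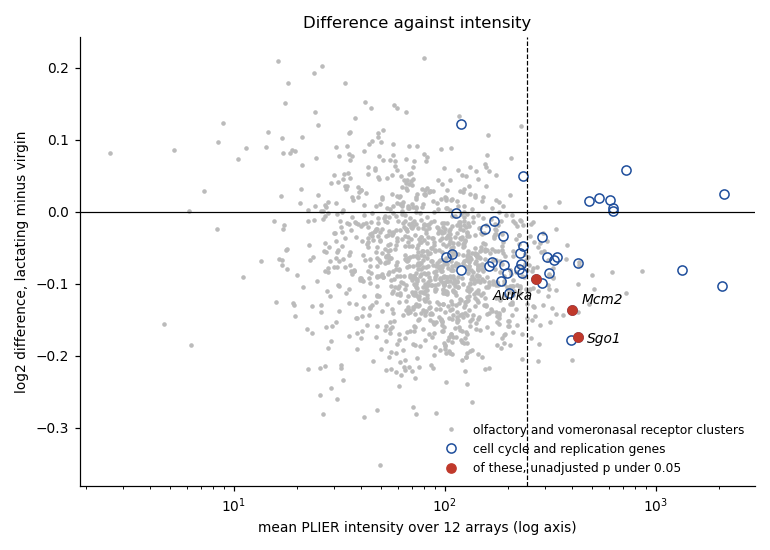
Log2 difference (y axis, lactating minus virgin) against the mean PLIER intensity over 12 arrays (x axis, log scale) for 1210 olfactory and vomeronasal receptor clusters (grey) and the 40 cell cycle genes (blue circles, filled red at an unadjusted p under 0.05). The dashed line is the 95th percentile of the receptor clusters, 246. Most grey points lie below 0, as do most blue circles on both sides of the line.

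Outside the set, 132 of 134 other cell cycle genes had a cluster. At the same unadjusted threshold 5 of these, or 3.79%, were lower and 7, or 5.30%, were higher, beside 4.69% and 3.26% of all clusters, which are also the shares to set beside the counts of the lists that follow. Their median was 0.012, against −0.065 for the members, a contrast that was not tested. None passed an adjusted p under 0.05 in limma, where the smallest was 0.619. Rad21, Ccni and Pole4 are also in the study's own list and are not independent evidence.

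Among 11 partner kinases and inhibitors, Cdk2, which drives S phase with the E and A cyclins, was lower, with a difference of −0.11 and p = 0.0195 both in limma and in the exact permutation test. Cdkn2d, an inhibitor of Cdk4 and Cdk6, was higher by 0.080, with p = 0.0463 in limma and 0.0238 in the exact permutation test. Neither call held after cyclic loess or quantile normalization. Cdk2 also did not pass with array medians subtracted, whereas Cdkn2d did and Cdkn1b of the same list was higher. Among 17 Rb, E2F and DREAM factors 0 were lower and 2 higher. Rbl2, or p130, the Rb relative that holds resting cells out of the cycle as part of DREAM, ranged from 866 to 964 in lactating mice and from 745 to 869 in virgin mice, with medians of 909 and 836. The groups met only at their edges, the means were 913 ± 43.0 and 829 ± 43.4 (SD, n = 6 each), and the difference of 0.14 had an unadjusted limma p of 0.0093 and an exact permutation p of 0.00649. E2f6, a repressive E2F, was higher by 0.14, with p = 0.0243 in limma and 0.0281 in the exact permutation test. Both calls held with array medians subtracted, cyclic loess and quantile normalization.

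Among 37 genes of origin recognition and the replisome 2 were lower and 1 was higher. Pole4, an accessory subunit of DNA polymerase epsilon, ranged from 1802 to 1926 in lactating mice and from 1949 to 2095 in virgin mice, with medians of 1877 and 1959. No lactating mouse reached the virgin range, a separation in this direction that 0.186% of all clusters showed. The difference of −0.086 had p = 0.0197 in limma and 0.00216 in the exact permutation test. Mcm10, which helps to activate the helicase, was lower, with a difference of −0.10 and an exact permutation p of 0.0238, and Gins3, a subunit of the GINS part of the helicase, was higher by 0.16, with an exact permutation p of 0.0152. With array medians subtracted neither Pole4 nor Mcm10 passed, and Mcm10 did not pass after cyclic loess or quantile normalization.

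Cohesin, condensin and separase genes, the partners of Sgo1 on chromosomes, had 0 lower and 2 higher of 20. Rad21, the cohesin subunit that separase cuts, ranged from 2033 to 2152 in lactating mice and from 1873 to 2063 in virgin mice, with medians of 2134 and 1955. The groups overlapped at their edges, and the means of 2112 ± 46.5 and 1961 ± 70.1 (SD, n = 6 each) differed by 0.11, with p = 0.0081 in limma and 0.00433 in the exact permutation test. Stag2, a further cohesin subunit, was higher by 0.094, with an exact permutation p of 0.0195, a call that was lost after cyclic loess and quantile normalization. Cohesin also shapes chromatin loops in cells that do not divide.

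Of 34 other mitotic genes 2 were lower and 0 higher. Cenpa, the histone of the centromere, had a difference of −0.14 with an exact permutation p of 0.0130, and Melk, a kinase of dividing cells, one of −0.12 with an exact permutation p of 0.0260. With array medians subtracted Melk did not pass and Anln, of the cleavage furrow, was higher. Of the 34, 25 were below 0, which became 22 with array medians subtracted, 19 after cyclic loess and 20 after quantile normalization. Of 13 cyclins outside the set 1 was higher and 0 lower. Ccni, a cyclin found in resting neurons, ranged from 3626 to 3863 in lactating mice and from 3361 to 3610 in virgin mice, with medians of 3756 and 3513. Every lactating mouse was above every virgin mouse, which 0.208% of all clusters showed, and the difference of 0.10 had p = 0.0060 in limma and 0.00216 in the exact permutation test.

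**Figure D5:**
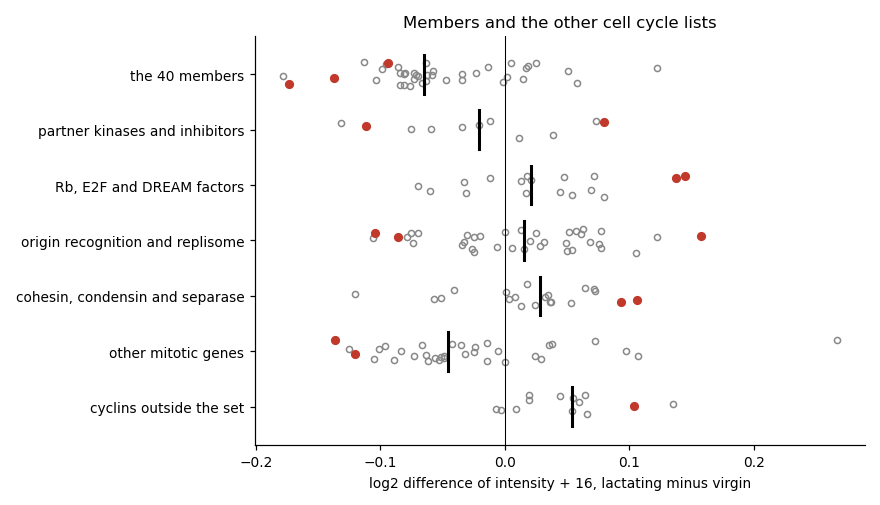
Log2 difference (x axis, lactating minus virgin) of each gene in the set of 40 and in 6 further cell cycle lists (y axis), with red points for an unadjusted p under 0.05 and black bars for medians. The median of the set lies at −0.065 and that of other mitotic genes at −0.045, while the cohesin list is at 0.028 and the further cyclins at 0.054.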

How the data were processed

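The study measured septum RNA of 6 lactating and 6 virgin mice, grouped by the sample labels. The authors summarised and normalized the array probes with the PLIER algorithm and GC background correction in Affymetrix Power Tools 1.12.0, and the deposited values are intensities on a linear scale. They tested the groups with limma. No genome build is stated for the array annotation in the sources used here.

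From the deposited intensities, log2 of the value plus 16 was compared over all 35556 clusters with limma 3.58.1 in R 4.3.3 (lmFit and eBayes, two-sided, no filter, Benjamini-Hochberg adjustment). The added 16 compresses differences of dim clusters, 496 of which average below it. For single genes an exact permutation test over 924 assignments was added. Lists were described by counts and medians, without a test. The 12 arrays limit the precision. The script was tested on simulated data.

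Genes with an unadjusted p under 0.05 or no overlap, Mki67, Top2a, Pcna, Cdk1, Ccnd1, Ccnd2, E2f1 and each MCM gene were named with values, and up to 4 genes per further list. Ccna2 and Cdc6, the ends of the range, were described more fully after their values were seen. The members and lists were chosen with earlier results of these data known. In all, 22 alternatives were run. The order of the mice after cyclic loess and the lists under other scalings were added after seeing the data. Promoters came from RefSeq.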

Additional observations from a re-analysis of the deposited data

Results flagged for a closer look

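In 6 of the 80 sets of 6 mice (40 genes in 2 groups) 1 mouse stood apart from its group, by a gap to its neighbour that took up more of the group's range than Dixon's critical value allows, and chance alone gives about 1 set in 20. Among lactating mice, mouse 5 was the highest for Ccnb2 at 574 (next 540), mouse 6 the highest for Cdk1 at 184 (next 164) and for Plk1 at 308 (next 242), and mouse 1 the lowest for Tyms at 266 (next 301). Among virgin mice, mouse 2 was the highest for Pcna at 2667 (next 2146) and mouse 4 the highest for Aurka at 302 (next 279).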

How the results depend on the processing

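Mcm2 and Sgo1 were lower at an unadjusted p under 0.05 in limma under all 22 alternatives, and Aurka under 12 of the 21 that gave it a value. With 1 mouse left out, 2 to 5 members were lower (5 without virgin mouse 1, with Ccne2 and Cenpe added) and 0 to 1 higher, 0 to 1 passed 0.0025, and their median was −0.081 to −0.040, while 1054 to 2599 clusters were lower and 782 to 1783 higher. Of all clusters, 992 were lower and 2027 higher with array medians subtracted, and 501 were lower among those above the median intensity. Members past 0.0025 numbered 2 on linear intensities (Mcm2 and Sgo1), 2 among the 14 above the median intensity, 1 after quantile normalization and 1 with the mean over clusters. After cyclic loess or quantile normalization 1 was higher, Cdc6. Reversed signs were −0.0012 for Mcm4 and −0.0062 for Mcm7 with array weights, −0.011 and −0.012 for Mcm7 after cyclic loess and quantile normalization, and 0.056 for Top2a with the mean over its clusters. With 1 mouse left out Mcm4 was −0.0076 to 0.036, Mcm7 −0.039 to 0.034 and Ccnd2 −0.0052 to 0.060. The cause of these changes was not tested.

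With replicate number as a block, 3 members were lower, with Ccna2 gained and Aurka lost (unadjusted limma p of 0.0909), the median difference of the members stayed −0.065, and 5.72% of all clusters were lower and 3.26% higher. The methods state that RNA of virgin and lactating mice was prepared in matched pairs, but the sources used here do not name the partners, and deviations of same-numbered mice correlated at −0.027 to 0.25.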
